A study of Mus musculus with 9 samples.

Results

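The genes described here are 9 secreted factors of the bone morphogenetic protein (BMP) and activin branch of the TGF-β superfamily, namely the BMP ligands Bmp2, Bmp4, and Bmp5, the BMP antagonist Grem1, the activin subunits Inhba and Inhbb, and the follistatin-type proteins Fst, Fstl1, and Fstl3. They were chosen by gene name from the 43346 genes of the deposited count and FPKM table, and all 9 were found there. The libraries came from lung fibroblasts of Col1a1-GFP mice, in which GFP marks cells with an active collagen I promoter, sorted as GFP+, CD45-, CD31-, and EpCAM- cells. All mice were aged (72 weeks by the sample labels), male, and on an FVB background, and they received saline (aged sham, n = 4) or a single intratracheal dose of bleomycin (aged bleo, n = 5) 30 days before the sort. Bleomycin is a DNA-damaging drug that injures the lung epithelium and leaves a fibrotic scar. The reporter follows collagen transcription, so the sort could hold any cell that turns on this promoter. Each library is from an independent mouse.

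BMPs and activins are secreted dimers that bind pairs of serine/threonine kinase receptors. BMPs signal mainly through SMAD1, SMAD5, and SMAD9 and induce ID genes, whereas activins signal through SMAD2 and SMAD3, as TGF-β does. Antagonists bind the ligands outside the cell. Gremlin-1, encoded by Grem1, holds BMP2 and BMP4, and follistatin (Fst) and its relative FSTL3 bind activins. In the lung, BMP4 is known for its part in branching and in endothelial and mesenchymal cell identity, and gremlin and activin A are known to be raised in fibrotic lung tissue.

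The libraries held between 49921946 and 68260600 counts. Levels are given as CPM, counts scaled to a common library size after TMM normalization, or as FPKM where genes are compared with each other, since FPKM is divided by gene length. A gene was called differentially expressed at a Benjamini-Hochberg adjusted p-value (FDR) under 0.10 and a fold change over 1.5 in edgeR's quasi-likelihood test over 16877 genes. The fibroblast genes Col1a1, Col1a2, and Col3a1 together with Pdgfra, Dcn, and Lum summed to 24399 to 30152 CPM in aged sham. In aged bleo the sum was 54352 to 71786 CPM. The 3 collagen genes were called higher and Dcn lower (8122 and 2795 CPM on average), while Pdgfra and Lum were not called. Pecam1, which encodes CD31, averaged 6.12 CPM in aged sham against 4.345 CPM in aged bleo, and Epcam 0.593 against 0.668 CPM. Ptprc, which encodes CD45, was higher than either, at 42.3 to 169 CPM in aged sham against 30.6 to 183 CPM after bleomycin, with the highest values in aged sham 4 and aged bleo 4. Leukocyte transcripts were present in all libraries, and 5 macrophage markers of the 8 listed were called higher in aged bleo. The summed macrophage list spanned 168 to 309 CPM in aged sham against 520.0 to 1604 CPM in aged bleo, and all 8 of its genes had more than 3 counts in every library. All 7 adventitial fibroblast markers, Dcn among them, were called lower. Their sums were 15286 to 17274 CPM in aged sham against 2546 to 8930.5 CPM in aged bleo. Of the 7 alveolar fibroblast markers, 3 were called lower and 1 higher. Their sums were 2333 to 3770 CPM in aged sham against 839.5 to 2415 CPM in aged bleo. The part of any of these lists in the results below was not tested. In sorted bulk samples, more cells that express a gene and more RNA per cell cannot be told apart.

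The 250 bases before the RefSeq start site were read for the 7 members with an entry (GRCm38.p6), and those of the 4 members whose aged bleo libraries all lay above aged sham are shown, since these are the genes whose transcripts separated the groups. Capitals mark a GGCGCC palindrome, a sequence found in BMP response elements. The Grem1 window is at chr2:113758649-113758898 on the minus strand, the Inhba window at chr13:16011601-16011850 on the plus strand, the Inhbb window at chr1:119422249-119422498 on the minus strand, and the Bmp5 window at chr9:75775115-75775364 on the plus strand.
Grem1: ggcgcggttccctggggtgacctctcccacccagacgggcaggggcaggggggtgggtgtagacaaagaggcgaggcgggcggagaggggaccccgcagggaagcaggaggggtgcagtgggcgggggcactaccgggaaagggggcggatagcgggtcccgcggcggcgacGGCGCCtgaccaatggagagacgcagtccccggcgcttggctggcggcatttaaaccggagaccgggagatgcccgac
Inhba: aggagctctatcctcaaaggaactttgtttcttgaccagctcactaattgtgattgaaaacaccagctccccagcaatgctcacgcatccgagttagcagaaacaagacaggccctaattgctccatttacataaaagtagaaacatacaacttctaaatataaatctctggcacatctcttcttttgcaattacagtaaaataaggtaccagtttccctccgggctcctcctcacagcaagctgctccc
Inhbb: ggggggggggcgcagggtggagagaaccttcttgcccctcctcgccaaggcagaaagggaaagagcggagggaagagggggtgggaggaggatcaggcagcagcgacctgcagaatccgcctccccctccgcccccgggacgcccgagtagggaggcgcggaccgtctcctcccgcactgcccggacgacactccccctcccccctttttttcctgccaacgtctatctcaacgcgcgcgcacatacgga
Bmp5: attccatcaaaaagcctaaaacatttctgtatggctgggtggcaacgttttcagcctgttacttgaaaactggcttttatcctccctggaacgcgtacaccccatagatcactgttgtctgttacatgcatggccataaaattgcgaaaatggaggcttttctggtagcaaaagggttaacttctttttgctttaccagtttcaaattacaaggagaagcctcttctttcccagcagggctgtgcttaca

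The 4 windows were of different base composition. Those of Grem1 (72.0% G and C, 24 CpG dinucleotides) and Inhbb (21 CpG) lay above the upper quartile of all windows, 61.2% G and C, whereas those of Inhba (43.2%, 3 CpG) and Bmp5 (42.8%, 4 CpG) were AT-rich. The median over all 32851 windows was 52.4%. Of 5 motifs searched on both strands, only GGCGCC was found in a member's window, in Grem1 from base -78 to base -73 counted from the start site, and 9.59% of all windows hold it. TGANTCA (AP-1, in 6.75% of all windows), GTCTAGAC (the SMAD palindrome, 0.167%), GGAATG (TEAD, 12.6%), and TGGAAA (NFAT, 18.6%) were found in none of the 7 members' windows. These matches are a description of the letters in 250 bases.

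After bleomycin, the antagonist gene Grem1 went from the least abundant member to the second most abundant. Both activin subunit genes were several-fold higher, Bmp5 was 2.53-fold higher, and Fst was modestly higher. Bmp2, Bmp4, Fstl1, and Fstl3 did not pass the thresholds. Thus 5 of the 9 members were called higher in aged bleo and none lower, where 12.3% of all tested genes were called higher, 11.5% lower, and 23.8% in either direction. In 4 members, all aged bleo libraries lay above all aged sham libraries, a separation seen in 16.1% of all tested genes (32.2% in either direction). The median log2 fold change of the 9 members was 0.87, against 0.0064 over all tested genes. The members were chosen with earlier results of these data known, so these shares and medians are given as a description only. The same 5 members passed the thresholds in every one of the alternative analyses, including those without any single library.

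**Figure D1:**
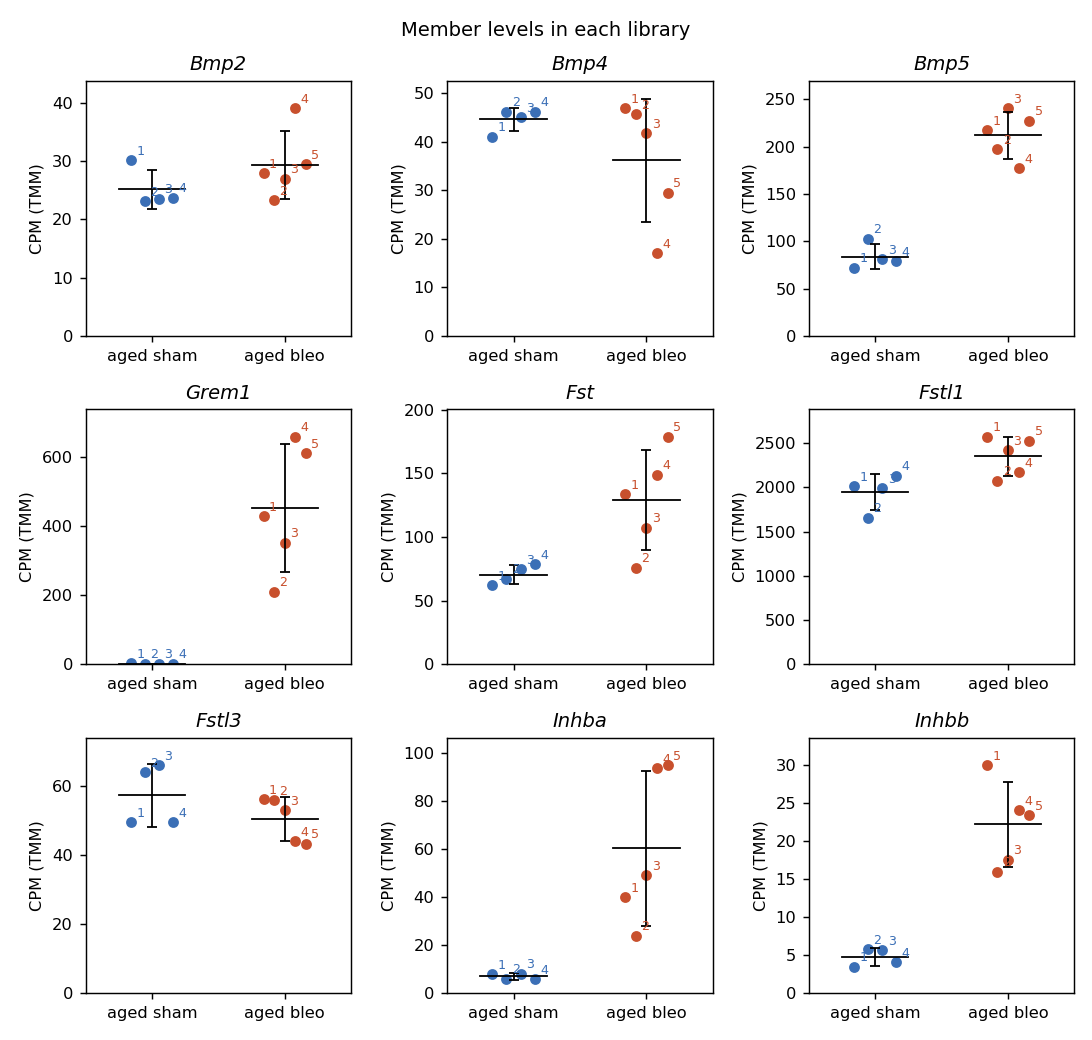
Levels of the 9 genes in CPM (y axes, linear from 0, one scale per gene) in the 4 aged sham and 5 aged bleo libraries. Points are libraries numbered by replicate, bars are the mean and SD. Grem1 lies between 1.83 and 2.79 CPM in aged sham and between 211 and 659 CPM in aged bleo, and Bmp4 is lowest in aged bleo 4 and 5.

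Of the BMP ligand genes Bmp2, Bmp4, and Bmp5, Bmp5 was the one called higher. Bmp5 (ENSMUSG00000032179, chromosome 9, 75775364 to 75900310, plus strand), a BMP of the 60A subgroup that shares type I receptors with BMP6 and BMP7, was at 72.1, 103, 80.9, and 78.8 CPM in aged sham 1 to 4. It was at 217, 197, 240.3, 177, and 227 CPM in aged bleo 1 to 5. Every aged bleo library was thus at least 1.72 times above the highest aged sham library, and the spread within either group was small. The means were 83.7 ± 13.3 CPM (SD, n = 4) and 212 ± 24.98 CPM (SD, n = 5), with a log2 fold change of 1.34 (standard error 0.13, edgeR FDR 1.53e-04). Gm26903, annotated as antisense to Bmp5 and sharing 2468 bases with its 3′ end, was higher too, at 29.1 to 47.4 CPM across aged sham against 79.6 to 103 CPM across aged bleo (log2 fold change 1.30, standard error 0.14, edgeR FDR 2.86e-04). The library kit does not mark strand, so reads from the shared stretch cannot be told apart.

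Bmp4 (ENSMUSG00000021835, chromosome 14, 46383520 to 46390669, minus strand), a ligand of BMPR1A and BMPR2 and a principal target of gremlin-1, was at 41.0, 46.1, 45.1, and 46.2 CPM in aged sham 1 to 4. In aged bleo 1 to 5 it was at 46.9, 45.6, 41.7, 17.0, and 29.5 CPM. The first 3 injured libraries lay within or just above the aged sham range, and aged bleo 4 and 5 lay below it. The difference did not pass the thresholds (log2 fold change -0.30, 95% interval -0.88 to 0.27, edgeR FDR 0.386). Without aged bleo 4, its log2 fold change was -0.13. The annotated antisense gene Gm15222 lies across 1764 bases of Bmp4 and was below 1 CPM in every library. The coefficient of variation of Bmp4 was 5.46% in aged sham and 35.2% in aged bleo.

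Bmp2 (ENSMUSG00000027358, chromosome 2, 133552159 to 133562885, plus strand), a close relative of Bmp4 that uses the same receptors, was at 30.2, 23.1, 23.5, and 23.7 CPM in aged sham 1 to 4 and at 27.9, 23.2, 27.0, 39.0, and 29.4 CPM in aged bleo 1 to 5. The groups overlapped, with aged bleo 4 the highest library and aged sham 1 above 4 of the 5 injured ones. The log2 fold change was 0.22 (95% interval -0.11 to 0.56, edgeR FDR 0.273).

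The largest difference among the members was in Grem1. Grem1 (ENSMUSG00000074934, chromosome 2, 113746164 to 113758646, minus strand), which encodes the cystine-knot BMP antagonist gremlin-1, was at 2.79, 1.83, 2.45, and 1.90 CPM in aged sham 1 to 4, from 173, 107, 126, and 94 counts. It was at 429, 211, 352, 659, and 612 CPM in aged bleo 1 to 5, from 11877 to 48315 counts. The lowest injured library stood 75.5 times above the highest aged sham library. The means were 2.24 ± 0.462 CPM (SD, n = 4) and 453 ± 185 CPM (SD, n = 5), a fitted change of 201-fold (95% interval 104 to 392; log2 fold change 7.65, standard error 0.43, edgeR FDR 1.23e-05). Only 8 of the 16877 tested genes, Grem1 included, had a log2 fold change this high. Within aged bleo, the level varied 3.12-fold, with aged bleo 2 lowest and aged bleo 4 and 5 highest. On the log2(FPKM + 1) scale, which compresses low levels such as those of aged sham, the difference was 5.18.

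Inhba (ENSMUSG00000041324, chromosome 13, 16011851 to 16027211, plus strand), whose product forms activin A as a homodimer, was at 7.85, 5.90, 8.04, and 5.61 CPM in aged sham 1 to 4. It was at 39.8, 23.8, 49.0, 93.4, and 94.7 CPM in aged bleo 1 to 5. The groups did not overlap, and the injured libraries spread 3.97-fold, again with aged bleo 2 lowest and aged bleo 4 and 5 about level at the top. The log2 fold change was 3.13 (standard error 0.42, edgeR FDR 9.28e-04), or 8.78-fold. On the log2(FPKM + 1) scale the difference was 2.37.

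Inhbb (ENSMUSG00000037035, chromosome 1, 119415465 to 119422248, minus strand), the subunit of activin B, was at 3.44, 5.75, 5.61, and 4.01 CPM in aged sham 1 to 4 and at 30.0, 15.98, 17.6, 24.1, and 23.4 CPM in aged bleo 1 to 5. Its order among injured mice differed from that of Inhba, since aged bleo 1 was highest and aged bleo 2 and 3 were lowest. The log2 fold change was 2.24 (standard error 0.23, edgeR FDR 2.24e-04), or 4.72-fold, and the difference on the log2(FPKM + 1) scale was 1.13. Inha, the α subunit that pairs with either β subunit to form inhibins, averaged 4.93 CPM against 5.09 CPM after bleomycin (log2 fold change 0.05, standard error 0.13, edgeR FDR 0.805).

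Fst (ENSMUSG00000021765, chromosome 13, 114452262 to 114458730, minus strand), which encodes follistatin, was at 62.0, 67.2, 74.6, and 78.5 CPM in aged sham 1 to 4 and at 134, 76.1, 107, 149, and 179 CPM in aged bleo 1 to 5. In 4 of 5 injured libraries it lay above the aged sham range, and aged bleo 2 lay inside it. The log2 fold change was 0.87 (standard error 0.22, edgeR FDR 0.0151), or 1.83-fold.

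Fstl3 (ENSMUSG00000020325, chromosome 10, 79777272 to 79782630, plus strand), a follistatin relative that also binds activins and myostatin, was at 49.5, 64.1, 66.1, and 49.6 CPM in aged sham 1 to 4 and at 56.3, 56.0, 53.0, 44.0, and 43.3 CPM in aged bleo 1 to 5. The groups overlapped, with aged bleo 4 and 5 below every aged sham library (log2 fold change -0.18, 95% interval -0.47 to 0.10, edgeR FDR 0.291). Prss57 shares 1157 bases with the 3′ end of Fstl3 and had 28.9 to 39.9 CPM across aged sham against 26.9 to 34.3 CPM across aged bleo, and reads of the shared stretch cannot be assigned to either gene with certainty.

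Fstl1 (ENSMUSG00000022816, chromosome 16, 37776873 to 37836514, plus strand), a secreted glycoprotein of the follistatin-SPARC family known to bind BMP4 in the developing lung, was the most abundant member. It was at 2016, 1656, 1990.5, and 2130.2 CPM in aged sham 1 to 4 and at 2572, 2077, 2421, 2171, and 2529 CPM in aged bleo 1 to 5. Aged bleo 2 fell below aged sham 4, and the other injured libraries lay above all of aged sham. The difference was under the fold change threshold and just outside the FDR threshold (log2 fold change 0.27, 95% interval -0.00072 to 0.55, edgeR FDR 0.109). In 6 of the 20 alternative analyses its FDR was under 0.10 (range over all 20, 0.0333 by DESeq2 to 0.267 by edgeR without aged sham 2), and its fold change stayed under 1.5 in each.

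**Figure D2:**
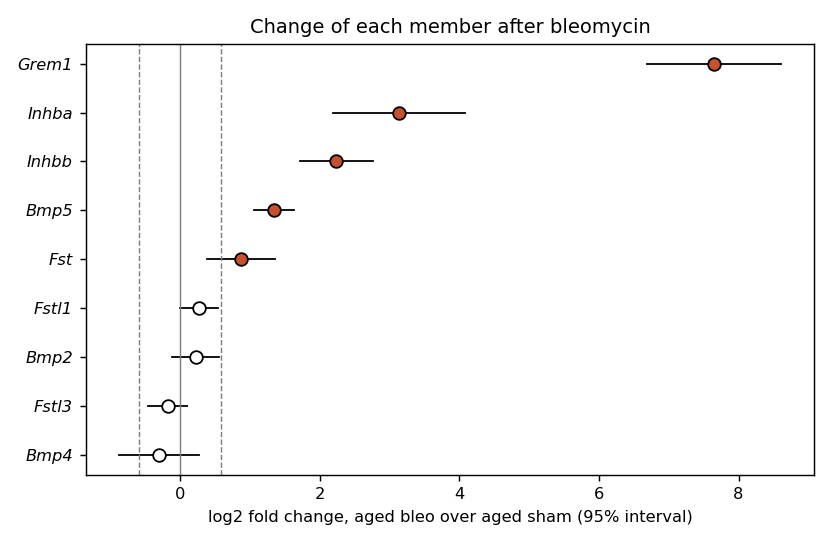
Log2 fold change of each gene between aged bleo (n = 5) and aged sham (n = 4), with its 95% interval from edgeR's fit. Filled points were called, open points were not, and dashed lines mark a 1.5-fold change. The values run from 7.65 for Grem1 to -0.30 for Bmp4.

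The members were also ordered by length-scaled level. In aged sham, Fstl1 led with 166 ± 15.4 FPKM (SD, n = 4). Next came Fst (12.7 FPKM), Fstl3 (9.84 FPKM), Bmp5 (8.73 FPKM), and Bmp4 (8.41 FPKM), whose ranges overlapped from each to the next. Bmp2 (2.96 FPKM), Inhba (1.45 FPKM), Inhbb (0.465 FPKM), and Grem1 (0.227 FPKM) followed, each with every library below every library of the gene before it. In aged bleo, Fstl1 was still highest at 206 ± 19.8 FPKM (SD, n = 5), and Grem1 had moved from last to second at 47.3 ± 20.5 FPKM, above Fst (23.8 ± 7.66 FPKM) in all 5 libraries although their ranges overlapped. Fst and Bmp5 (22.6 FPKM) were at like levels, with Fst higher in 3 of 5 libraries. Inhba (13.2 FPKM), Fstl3 (8.87 FPKM), Bmp4 (6.94 FPKM), Bmp2 (3.56 FPKM), and Inhbb (2.25 FPKM) came after, with each range overlapping the next.

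Set beside each other on this scale, the summed transcripts of Bmp2, Bmp4, and Bmp5 and those of Grem1 changed places in aged bleo 1, 4, and 5. The other ligands and antagonists described below do not enter this comparison. The FPKM of Bmp2, Bmp4, and Bmp5 together was between 66.6 and 119.6 times that of Grem1 in the aged sham libraries (median 91.1). In aged bleo the ratio was 0.801, 1.49, 1.01, 0.394, and 0.529 in libraries 1 to 5. Grem1 transcripts thus exceeded those of the 3 ligands combined in aged bleo 1, 4, and 5, nearly equalled them in aged bleo 3, and fell short of them in aged bleo 2. The sum of the ligands was itself higher after bleomycin, at 28.1 to 35.9 FPKM against 18.8 to 22.5 FPKM. Of the 3 ligand genes, only Bmp5 was called higher, with means of 8.73 FPKM in aged sham and 22.6 FPKM in aged bleo. Bmp4 averaged 8.41 and 6.94 FPKM and Bmp2 2.96 and 3.56 FPKM. In aged bleo, Grem1 was at 21.4 FPKM or more, whereas Bmp4 reached at most 9.11 FPKM and Bmp2 at most 4.93 FPKM. The FPKM of Inhba and Inhbb over that of Fst and Fstl3 was 0.102, 0.0788, 0.0913, and 0.0700 in aged sham 1 to 4, and 0.338, 0.285, 0.427, 0.646, and 0.566 in aged bleo 1 to 5. The groups did not overlap in either ratio, but Grem1, Inhba, and Inhbb already had no overlap themselves, so this is no separate result. The activin subunits remained below their antagonists in all 9 libraries. These are ratios of transcripts, given as a description, and say nothing of secreted protein.

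**Figure D3:**
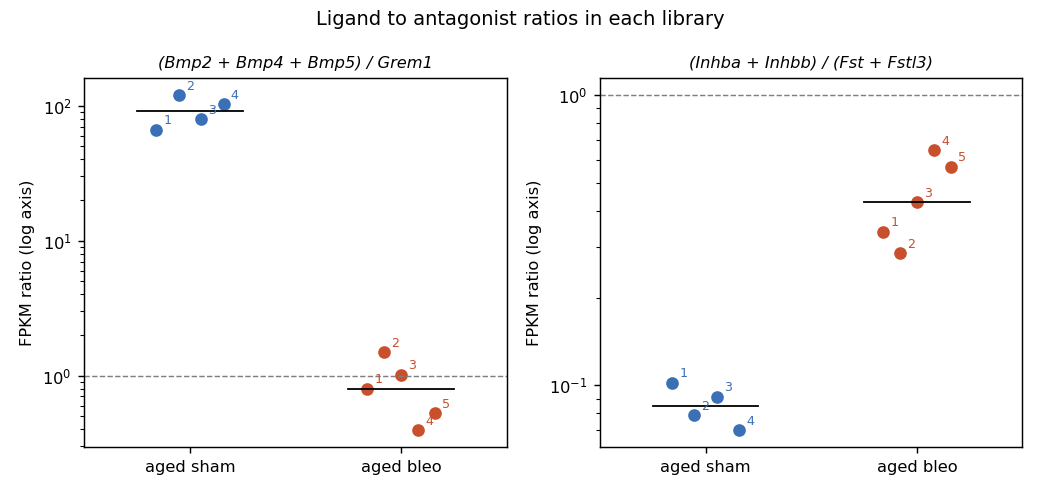
Ratio of summed FPKM in each library, for BMP ligands over Grem1 (left) and activin subunits over Fst and Fstl3 (right), on log axes. Points are libraries numbered by replicate, solid lines are group medians, and the dashed line marks a ratio of 1. The left ratio falls from a median of 91.1 in aged sham to 0.801 in aged bleo, and the right ratio rises from 0.0850 to 0.427.

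The injured libraries were not all equally far from aged sham. For Grem1, Inhba, and Fst, aged bleo 4 and 5 were the highest of the injured libraries, while Bmp4 and Fstl3 were lowest in these libraries. Aged bleo 2 was the nearest to aged sham in 4 of the 5 called members. This order was not particular to the members. Over all 4022 called genes, aged bleo 4 and 5 lay farthest from aged sham in 61.7% and aged bleo 2 nearest in 67.8%. The adventitial markers were likewise lowest in aged bleo 4 and 5, at 2546 and 3115 CPM in sum, as were the alveolar fibroblast markers (839.5 and 1017 CPM). Aged bleo 4 had the highest sum of leukocyte markers (509 CPM, against 91.0 to 141 CPM in the other injured libraries). Leaving out aged bleo 4 together with aged sham 4 left the same 5 members called. The names of the aged sham libraries and of aged bleo 4 end in the number 4, and those of the other injured libraries in 5 or 6, with no meaning stated. In all libraries but aged bleo 4, the ending and the treatment cannot be told apart, and the part of the ending in these results was not tested. Aged bleo 4, a single library that shares its ending with the controls, was above every aged sham library in all 5 called members. In 4 of these members, so was every other aged bleo library.

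Other genes of the pathway were read from the same fit, by lists of 17 ligands, 16 antagonists, 12 receptors and co-receptors, and 14 BMP-responsive SMADs and targets. Of these 59 genes, 45 were abundant enough to test, 6 were called higher, and 12 were called lower, with a median log2 fold change of -0.04. Of all tested genes, 12.3% were called higher and 11.5% lower, and the counts given here and for each list are to be read against these shares. One of the 6, Nog, passed the filter on low counts only through aged bleo, which leaves 5 higher and 12 lower among the 44 genes that passed it in both groups. Without aged bleo 5, 11 were called, 6 higher and 5 lower. The genes named are those that were called and the most abundant of each list, together with Inha, Id1, and Bmp8b, which were added after their values were seen.

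Of the 10 other ligand genes tested, 2 were higher and 4 lower. Bmp6 averaged 19.2 ± 1.30 CPM (SD, n = 4) in aged sham against 4.41 ± 2.22 CPM (SD, n = 5) after bleomycin, with every injured library below (log2 fold change -2.12, standard error 0.36, edgeR FDR 0.00267). Bmp7, of the same subgroup as Bmp5 and Bmp6, rose from 3.78 to 13.4 CPM (log2 fold change 1.83, standard error 0.36, edgeR FDR 0.00533). Within the 60A subgroup, Bmp5 and Bmp7 were thus higher and Bmp6 lower, while Bmp8b averaged 2.09 and 2.02 CPM and was not called (log2 fold change -0.04, 95% interval -0.38 to 0.29) and Bmp8a was too low to test. Gdf11, an activin-like ligand, rose from 5.94 to 17.5 CPM (log2 fold change 1.56, standard error 0.19, edgeR FDR 5.06e-04). Gdf10, the most abundant ligand of the list, averaged 420.3 ± 34.8 CPM (SD, n = 4) in aged sham against 214 ± 109 CPM (SD, n = 5) after bleomycin, from 348 CPM in aged bleo 2 down to 90.6 CPM in aged bleo 4. Its log2 fold change was -0.97 (standard error 0.36, edgeR FDR 0.0605). Gdf7 and Gdf9 fell by 0.70 and 0.73 on the log2 scale from under 3 CPM (edgeR FDR 0.0609 and 0.0316). Bmp3, the second most abundant, had 45.1 and 57.05 CPM and was not called.

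Of the 11 other antagonist genes tested, 2 were higher and 3 lower. Bmper, which encodes an extracellular modulator that binds BMPs, was at 24.3, 21.5, 23.8, and 24.9 CPM in aged sham 1 to 4 and at 144, 83.3, 125, 167, and 196.5 CPM in aged bleo 1 to 5. The groups were far apart, and aged bleo 2 was again the lowest injured library (log2 fold change 2.60, standard error 0.23, edgeR FDR 9.07e-05). The other gene called higher was noggin (Nog), at 7 to 10 counts per library in aged sham against 30 to 61 after bleomycin (means 0.152 and 0.766 CPM). It passed the filter of 25 counts on average only through the injured libraries, so its call is not given as a test result. Chordin (Chrd) and chordin-like 1 (Chrdl1), which also hold BMPs away from their receptors, fell from 46.3 to 20.2 CPM and from 197 to 54.0 CPM (log2 fold changes -1.20 and -1.87, standard errors 0.28 and 0.43, edgeR FDR 0.0111 and 0.0101). Sost, encoding the BMP and Wnt antagonist sclerostin, fell from 76.6 ± 33.3 CPM (SD, n = 4) to 17.7 ± 14.0 CPM (SD, n = 5), with a log2 fold change of -2.11 (edgeR FDR 0.0228). Twsg1 (580.1 and 444 CPM) and Nbl1 (516 and 614 CPM) were the most abundant of this list and were not called.

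Of the 11 receptor and co-receptor genes tested, 2 were higher and 3 lower. Acvr1, encoding the type I receptor ALK2 that BMP5 to BMP7 use, averaged 52.8 ± 3.33 CPM (SD, n = 4) in aged sham against 82.4 ± 5.09 CPM (SD, n = 5) after bleomycin (log2 fold change 0.64, standard error 0.07, edgeR FDR 2.90e-04). Bmpr1b rose from 2.46 to 5.57 CPM, with 8.08 and 9.36 CPM in aged bleo 4 and 5 and under 4 CPM in the other injured libraries (log2 fold change 1.18, edgeR FDR 0.0317). Acvr2a, a type II receptor for activins, fell from 106 to 69.5 CPM, Acvrl1, encoding ALK1, from 176 to 108.0 CPM, and the co-receptor Rgmb from 52.7 to 33.6 CPM (log2 fold changes -0.61, -0.70, and -0.65, edgeR FDR 0.0298, 0.0476, and 0.0258). The main BMP receptors Bmpr2 and Bmpr1a averaged 218 and 192 CPM in aged sham against 264 and 206 CPM after bleomycin, and neither was called (log2 fold changes 0.28 and 0.10).

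Of the 13 SMAD and target genes tested, none was called higher and 2 were called lower. Id2 fell from 74.2 ± 7.99 CPM (SD, n = 4) to 48.1 ± 6.60 CPM (SD, n = 5), and Bambi, a decoy receptor that BMP signaling induces, from 24.9 to 16.6 CPM (log2 fold changes -0.63 and -0.59, standard errors 0.11 and 0.12, edgeR FDR 0.00384 and 0.00715). In both genes all aged bleo libraries lay below all aged sham libraries, as in 16.1% of all tested genes. Id3, the most abundant of the list, was at 308 ± 72.0 CPM (SD, n = 4) and 238 ± 43.6 CPM (SD, n = 5), and Id1, a widely used readout of BMP signaling, at 17.2 and 17.7 CPM, with log2 fold changes of -0.37 (standard error 0.18, edgeR FDR 0.137) and 0.04 (standard error 0.14, edgeR FDR 0.851). The interval for Id1 ran from -0.27 to 0.34. Smad5 and Smad4 averaged 132 and 98.0 CPM in aged sham against 137 and 93.0 CPM after bleomycin, and neither was called (log2 fold changes 0.05 and -0.07).

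**Figure D4:**
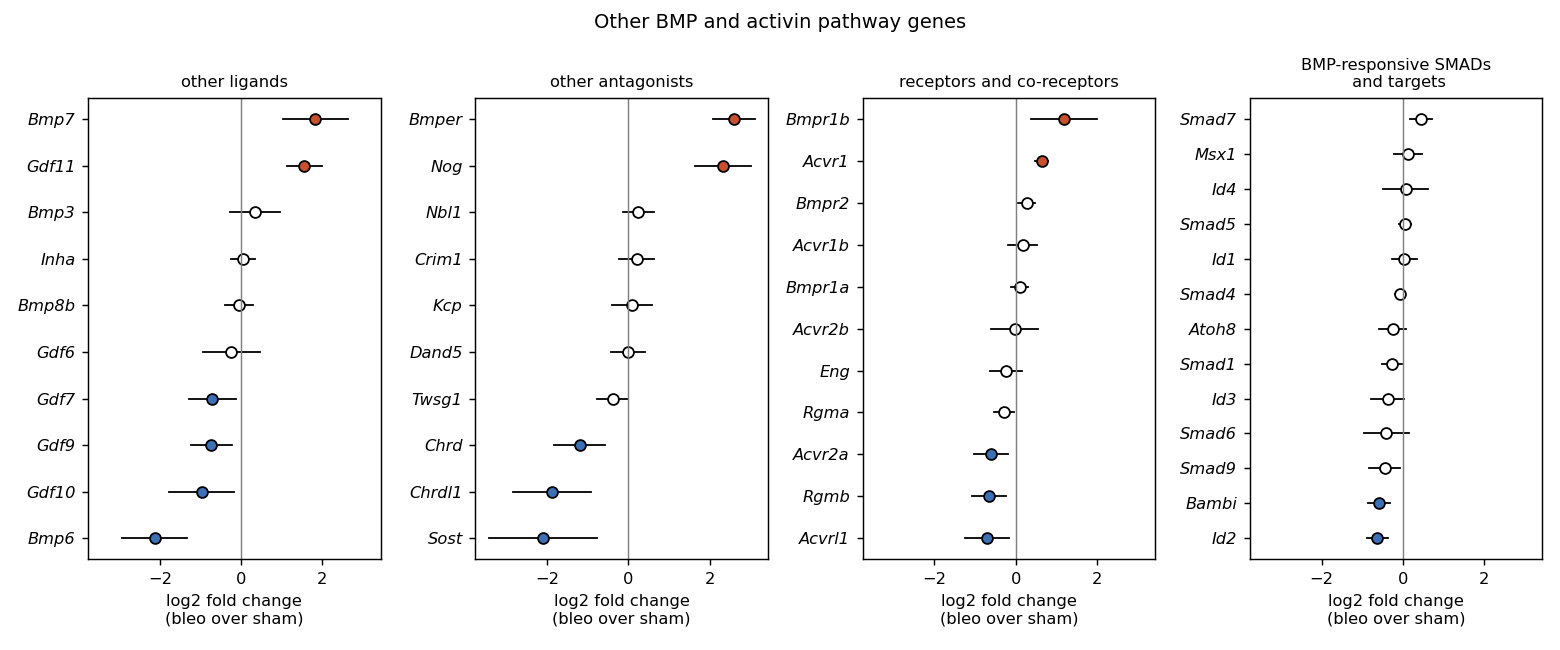
Log2 fold changes between aged bleo (n = 5) and aged sham (n = 4) with 95% intervals for tested genes of 4 lists. Red points were called higher (Nog passed the count filter only through aged bleo), blue points lower, and open points were not called. The most extreme values are 2.60 for Bmper and -2.12 for Bmp6, and the SMAD and target panel holds 2 called genes, both lower.

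The genes with the most similar profiles were found by the root mean square difference of mean-centred log2 CPM over the 9 libraries, among 15269 other tested genes with a mean of at least 1 CPM. These profiles include the difference between the groups, and the distances are given as a description. Closest to Grem1 were Shisa6 (root mean square difference 0.37), Spp1 (0.38), which encodes osteopontin, and Lrrc15 (0.49). Shisa6 averaged 0.00915 CPM in aged sham, under the level of 3 counts per library, and 7.76 CPM in aged bleo. Spp1 averaged 8.77 and 2145 CPM and Lrrc15 0.0845 and 37.8 CPM. Shisa6 and Lrrc15 had so few counts in aged sham that they passed the count filter only through aged bleo. Their log2 CPM in aged sham depends in part on the prior count of 2, which is added before taking logs. Their fitted log2 fold changes were 9.43 and 8.75, against 7.65 for Grem1. The distances of Shisa6 and Lrrc15 therefore cannot show how alike their profiles are to that of Grem1. Closest to Inhba were Wisp1 (0.20), a matricellular CCN protein gene, Fam132b (0.22), and Uck2 (0.24). For Inhbb they were Serinc2 (0.15), the mesenchymal transcription factor gene Foxf2 (0.24), and Rgs2 (0.24), and for Fst they were Gyk (0.11), Mgll (0.13), and Gm26737 (0.15). Closest to Bmp5 were its antisense neighbour Gm26903 (0.08), the endothelin receptor gene Ednra (0.10), and Ncald (0.13).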

How the data were processed

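The members and gene lists were chosen with earlier results of these data known. The authors deposited read counts per gene, whole numbers without normalization, and FPKM values, which the authors divided by gene length and by a library total that was 2.27 to 2.42 times the summed counts. The submitters' processing notes name STAR 2.5.2b, featureCounts, and GRCm38. Libraries were made from polyadenylated RNA with a kit that keeps no strand. Samples were grouped by their titles, each from an independent mouse per the study's methods, and all 9 were used. No pair of libraries in a group was a duplicate (chi-square per degree of freedom 30.9 to 468).

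Counts were tested with edgeR 4.0.16 (glmQLFit, glmQLFTest, TMM) in R 4.3.3, without covariates, for genes averaging 25 counts or more, and FDR values are adjusted over all 16877 of them. Alternatives were DESeq2 1.42.0, limma 3.58.1 on log2 CPM (prior count 2), log2(FPKM + 0.1), and log2(FPKM + 1), RLE factors, unscaled library sizes, no count filter, a minimum of 10 counts per library, each library left out, aged sham 4 and aged bleo 4 left out, and replicate numbers as a block. The tests were tried on simulated counts. Named besides the members were called genes of the pathway lists, up to 3 of the most abundant per list, overlapping genes, and the 3 closest profiles of each called member. Inha, Id1, Bmp8a, Bmp8b, and Ptprc fall outside this rule, and 1 tested antagonist gene that is in the counts is not reported here. A count of 0 allows up to 3 counts, 0.0409 to 0.0605 CPM here, which covers counting error only. Promoter windows came from RefSeq.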

Additional observations from a re-analysis of the deposited data

Results flagged for a closer look

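Among 58 groups of libraries examined for a single library far from the rest (members, called pathway genes, and the ratios, in each group), 2 stood out, where chance gives about 1 in 20. Bmp2 was at 30.2 CPM in aged sham 1, while the other aged sham libraries lay between 23.1 and 23.7 CPM. Bmp7 was at 2.16 CPM in aged sham 2, while the others lay between 4.21 and 4.52 CPM.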

How the results depend on the processing

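All 9 members kept their direction in every alternative, and the call, which needs both the FDR and the fold change, kept its outcome for each. The FDR of Fstl1 crossed 0.10 in 6 of 20 alternatives (0.0333 to 0.267), while its fold change did not reach 1.5 in any of them. On log2(FPKM + 1), which compresses low levels, 1785 genes were called (960 higher, 825 lower) against 4022, and 9 other pathway genes (3 higher, 6 lower) against 18; the cause was not tested. With single libraries left out, between 3525 and 4597 genes were called (1876 to 2314 higher, 1639 to 2283 lower), and 11 to 18 other pathway genes (5 to 6 higher, 5 to 12 lower), the fewest without aged bleo 5. Correlations of log2 CPM deviations from the group means were 0.0922, 0.0623, -0.130, and 0.326 for libraries of the same number. For those of different numbers they ran from -0.213 to 0.252. The highest was that of aged sham 4 with aged bleo 4, and these values do not settle whether the numbers pair the libraries. With the replicate block over 8 libraries, 3541 genes and 14 other pathway genes were called (5 higher, 9 lower), and the log2 fold change of Grem1 was 7.42. The same 8 libraries without the block, which are all but aged bleo 5 and were added after seeing the data, gave 11 other pathway genes (6 higher, 5 lower). The standard error of the Grem1 log2 fold change was 0.43, and 0.30 without aged bleo 2.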
